A study of Mus musculus with 24 samples.

Results

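The genes described here are those with which a cell makes, takes up, stores and exports sterols, together with the regulators of these steps, in primary and SV40 T-immortalized mouse embryonic fibroblasts (MEFs) that lacked Myc, Mlx, both or neither. Members were taken by symbol from a given list and all 34 were found among the 41710 genes of each of the 2 deposited expression tables. Of these, 20 encode enzymes of the synthesis pathway and 14 encode regulators and proteins of uptake, intracellular transport, esterification and efflux. The list has no threshold on a measured value, but it was drawn up with earlier results of these data known.

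Cholesterol is built from acetyl-CoA through mevalonate and isoprenoid units, which are joined to squalene, closed to lanosterol and then trimmed to cholesterol. Cells control this pathway by a sterol sensor in the endoplasmic reticulum. When membrane sterol is low, Scap carries the SREBP proteins, encoded by Srebf1 and Srebf2, to the Golgi, where they are cut to release a transcription factor that acts on synthesis and uptake genes, and when sterol is plentiful the Insig proteins hold Scap back. Oxysterols act on the LXR receptors, encoded by Nr1h2 and Nr1h3, which raise the transcription of efflux genes. Myc acts with its partner Max, and Mlx is the common partner of the glucose-responsive factors MondoA and ChREBP. Both pairs bind the E-box CACGTG and related sequences.

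Each table held 3 libraries of each of 4 genotypes. All knockout cells came from MEFs with floxed Myc alleles (MycKO), floxed Mlx alleles (MlxKO) or both (DKO, for double knockout) together with a ROSA26-CreER transgene, which makes a tamoxifen-activated Cre recombinase from a promoter active in all tissues. MEFs were prepared from embryos of days 14 to 16 pooled by genotype, at least 6 a pool per the labels. Recombination was induced with 500 nM 4-hydroxytamoxifen (4OHT), whereas WT cells kept both loci intact. In the paper, WT denotes MEFs of these same floxed strains without excision, not unmodified cells. Immortalized lines were made by infection with a lentivirus that encodes SV40 T-antigen for 72 h and selection in blasticidin, and the immortalized WT cells were not exposed to 4OHT. Per the paper, the floxed cells were immortalized first and the target genes were excised afterwards. The 3 replicates of a group are separate RNA samples, which the paper calls biological replicates. Whether they came from separate cultures is not given in the sources used here. The paper describes 3 WT lines, of which a single one served as control in most cases, and does not say which were sequenced. The p-values thus measure only the spread between these samples. The labels give 4OHT for every knockout group and for no WT group. The genotype and the pool or line that carried it cannot be told apart, nor, against WT, can 4OHT exposure. At the time of RNA extraction the primary MycKO and DKO cells had stopped dividing, per the study's methods and results.

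Values are CPM, read counts relative to library size, that had been scaled between libraries before deposit. The libraries held between 15986856 and 20966163 reads on genes, and 3 reads, the level below which a gene was taken as not detectable, equalled between 0.145 and 0.196 CPM. Differences are given on the log2(CPM + 1) scale, which understates the change of weakly expressed genes, ± the standard error of a limma fit of 4 genotypes with 3 libraries each, and a gene was called changed at a Benjamini-Hochberg adjusted p under 0.05 over all 13101 primary or 12880 immortalized genes tested. All 34 members passed the filter on low values in both tables. Levels of different genes were not compared, because the values are not corrected for gene length.

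Both targeted genes were lower where the labels say they were deleted. Myc lay between 89.8 and 100.1 CPM in primary WT and between 19.9 and 26.8 CPM in the 6 primary MycKO and DKO libraries, and in immortalized MycKO and DKO cells it lay between 4.3 and 17.2 CPM. Mlx lay between 20.5 and 26.0 CPM in primary WT and between 9.7 and 14 CPM in primary MlxKO and DKO cells. In immortalized cells the Mlx difference was smaller in DKO, at 14.5 to 18.0 CPM, than in MlxKO, at 12.1 to 17.0 CPM, against 20.5 to 25.1 CPM in WT. Immortalized WT library 4 stood apart from libraries 2 and 3. Its values correlated with theirs at r of 0.943 to 0.950 across genes, against 0.992 between libraries 2 and 3, its Myc level was 177.5 CPM against 48.1 and 39.9, and the Y-linked gene Ddx3y was at 106 CPM against 6.56 and 4.61. Whether it came from the same WT line or pool as libraries 2 and 3 is not given in the sources used here. Results that involve immortalized WT cells are therefore given with and without it. The pools differed in Ddx3y also elsewhere, from 10.1 to 10.9 CPM in primary DKO against 50.5 to 84.8 CPM in the other primary genotypes. In immortalized cells Ddx3y was at 42.9 to 56.8 CPM in MlxKO, 19.1 to 20.8 in MycKO and 1.25 to 2.04 in DKO. Of the members, 2, Nsdhl and Ebp, are X-linked. Fibroblast markers were expressed in every genotype, whereas the 12 macrophage markers summed to between 342 and 666 CPM in primary WT, 365 and 454 in MlxKO, 58.9 and 87.2 in MycKO and 112 and 262 in DKO, and to less than 6 CPM in every immortalized library. The 10 genes of a growth-state list summed to between 1219 and 1278 CPM in primary WT, 978 and 1028 in MlxKO, 701 and 843 in MycKO and 572 and 598 in DKO. In bulk RNA, fewer cells of a type and less RNA per cell cannot be told apart, and the part of macrophages and of growth state in the results below was not tested.

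In primary MEFs, the synthesis pathway moved almost as a unit, downward without Myc and upward without Mlx alone. The 20 synthesis enzymes summed to between 1403 and 1531 CPM in the WT libraries. This sum was 128% ± 7.97 of the WT mean in the MlxKO libraries, 64.8% ± 1.64 in those of MycKO and 55.6% ± 3.29 in those of DKO (SD, n = 3). The ranges of the 4 genotypes did not overlap, the closest being MycKO, with its lowest library at 63.1%, and DKO, with its highest at 57.8%. Of the 20 enzymes, 16 had their mean levels in the order MlxKO, WT, MycKO, DKO from high to low, an order held by 9.85% of all genes tested. The 4 exceptions were Ggps1 and Tm7sf2, which were higher in DKO than in WT, and Lbr and Ebp, which were highest in WT. The plot of the synthesis enzymes by library shows the primary cells above and the immortalized cells below.

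**Figure D1:**
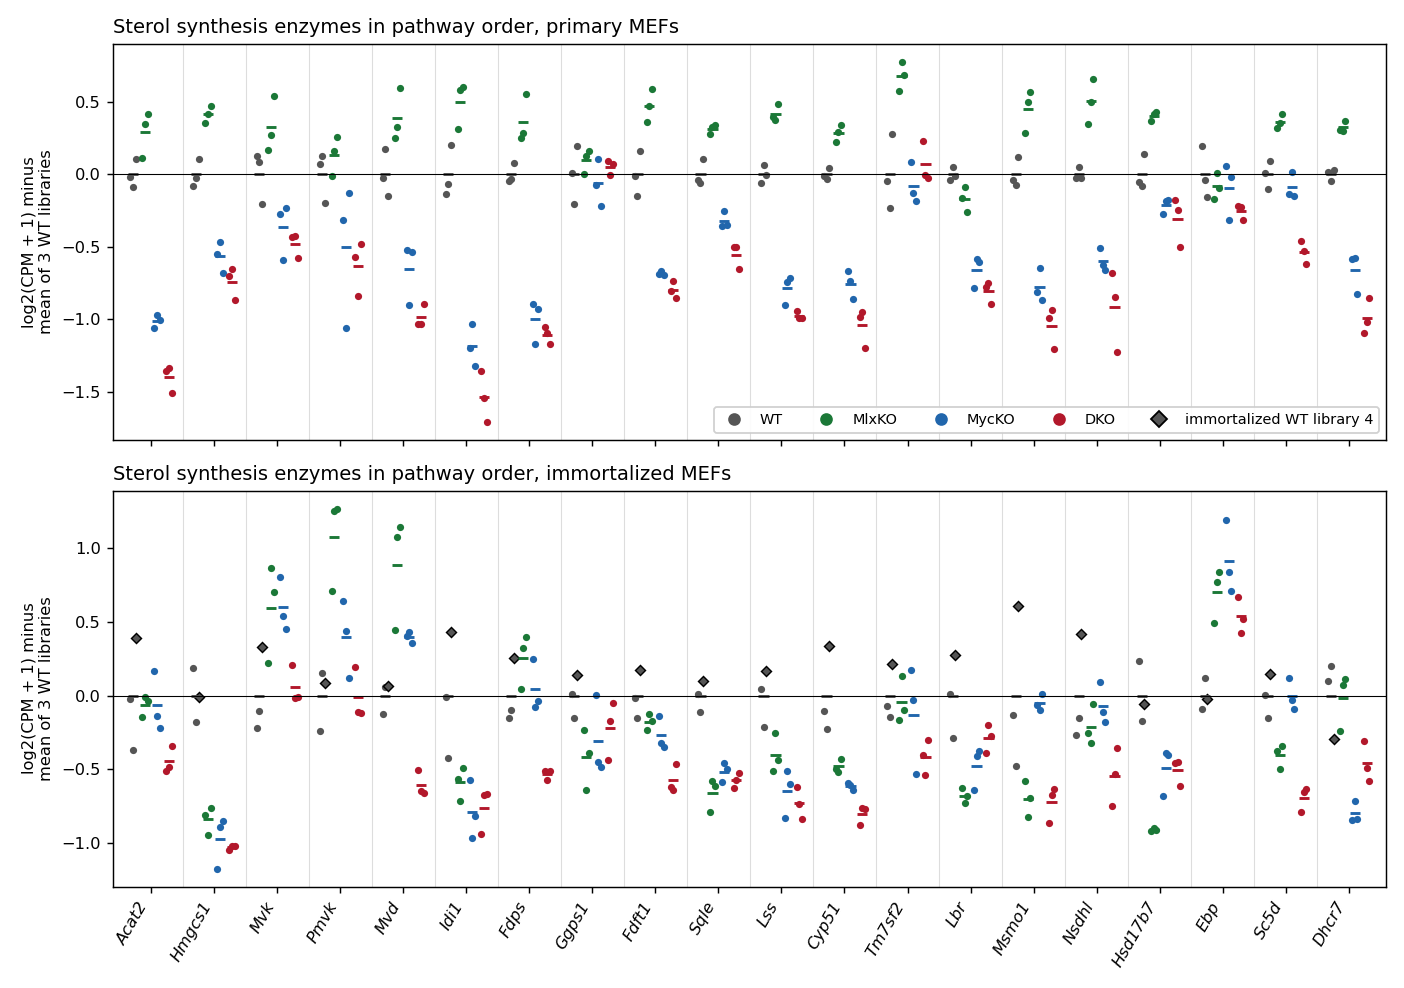
Levels of the 20 sterol synthesis enzymes in each library, as log2(CPM + 1) minus the mean of the 3 WT libraries of the same table, in pathway order from left to right. Points are libraries, short bars are means of 3 libraries, and the diamond is immortalized WT library 4. In primary MEFs MlxKO libraries lie mostly above and MycKO and DKO libraries below WT, and in immortalized MEFs the order differs from gene to gene.

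Loss of Myc in primary MEFs was accompanied by lower levels of 15 of the 20 synthesis enzymes and higher levels of none, whereas 21.9% of all genes were called lower, 20.4% higher and thus 42.3% in either direction. The median difference of the 20 enzymes was -0.63, against 0.00 for all genes tested. The calls took in 7 of the 8 enzymes of the mevalonate and isoprenoid steps, all 3 enzymes from squalene to lanosterol and 5 of the 9 enzymes between lanosterol and cholesterol. The 5 enzymes not called also had differences below 0, namely Ggps1 (-0.06), Tm7sf2 (-0.08), Ebp (-0.09), Sc5d (-0.09) and Hsd17b7 (-0.21).

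Idi1, the isomerase that interconverts the 5-carbon isoprenoid units, fell the most. It was at 93.3, 98.1 and 118 CPM in WT and at 44.1, 49.7 and 40.4 CPM in MycKO cells, a difference of -1.18 ± 0.11 (limma, adjusted p = 3.69e-07). Acat2, the cytosolic thiolase that joins 2 acetyl-CoA molecules at the entry of the pathway, went from 61.0, 58.2 and 66.7 CPM to 29.1, 31.1 and 30.3 CPM, a fall of 1.01 ± 0.09 on the log2 scale (limma, adjusted p = 1.53e-07). Its exons overlap those of Tcp1 on the opposite strand, and whether reads were counted by strand is not given. Fdps, which makes farnesyl diphosphate, the last metabolite before sterols and other isoprenoids part ways, fell by 1.00 ± 0.09 (limma, adjusted p = 1.77e-07). Further along, Lss, which closes the ring of lanosterol, fell by 0.79 ± 0.07 from 65.2, 71.1 and 67.6 CPM to 35.9, 40.2 and 41.0 CPM, and Cyp51, the lanosterol demethylase, fell by 0.76 ± 0.07. The smallest called difference was that of Sqle (-0.32 ± 0.07), the squalene epoxidase, whose libraries at 117, 116 and 129 CPM in WT and 93.7, 101 and 94.6 CPM in MycKO cells still did not overlap. The calls for Mvk (-0.37 ± 0.12) and Pmvk (-0.50 ± 0.19), the kinases that phosphorylate mevalonate and its product, depended on single libraries, and Pmvk was not called by edgeR or DESeq2 on the recovered reads.

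Without Mlx alone the direction was the opposite, and the differences were smaller. In primary MlxKO cells 14 of the 20 enzymes rose and none fell, against 3.75% of all genes called higher, 5.14% lower and 8.88% in either direction, and the median difference was 0.36. Hmgcs1, which forms HMG-CoA, was at 228, 238 and 248 CPM in MlxKO against 169, 175 and 192 CPM in WT (0.41 ± 0.07, limma, adjusted p = 0.00214). Lss was at 89.7, 88.1 and 95.4 CPM, also above every WT library (0.42 ± 0.07, limma, adjusted p = 0.00133). Fdft1, the squalene synthase that commits farnesyl diphosphate to sterols, rose by 0.47 ± 0.08, and Tm7sf2, a sterol C14 reductase with only 3.10 to 4.85 CPM in WT, by 0.68 ± 0.15, a call lost without WT library 2. The exons of Tm7sf2 overlap those of a neighbour on the same strand, which makes its count uncertain. The enzymes not called were Mvk (0.33), Mvd (0.39), Pmvk (0.14), Ggps1 (0.10), Ebp (-0.08) and Lbr (-0.17). The number of enzymes called was 8 without WT library 1, 9 without WT library 2 and 9 without MlxKO library 7. In these fits 4.75%, 4.79% and 6.09% of all genes were called. The calls for Hmgcs1, Fdft1, Sqle, Lss, Msmo1, Hsd17b7 and Sc5d held in every setting tried.

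The double knockout followed the Myc knockout and went further. In primary DKO cells 17 of the 20 enzymes were lower than in WT and none was higher, against 25.5% of all genes called lower, 24.0% higher and 49.5% in either direction, with a median difference of -0.80. Idi1 again had the largest difference, with 39.5, 34.5 and 30.7 CPM in DKO cells (-1.54 ± 0.11, limma, adjusted p = 1.48e-08), followed by Acat2 (-1.40 ± 0.09) and Fdps (-1.11 ± 0.09). Of the late enzymes Dhcr7, which reduces 7-dehydrocholesterol in the final steps, went from 33.2, 31.8 and 33.4 CPM in WT to 14.8, 15.7 and 17.7 CPM in DKO cells (-0.99 ± 0.09). Ggps1, which makes the geranylgeranyl diphosphate used for protein prenylation and is thus a branch away from sterols, stayed between 38.1 and 40.6 CPM in DKO against 32.9 to 43.9 CPM in WT (0.05 ± 0.10, 95% confidence interval -0.16 to 0.26).

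Set directly against the single knockouts, DKO cells were lower than MycKO cells in 7 enzymes and higher in none, against 11.0% of all genes called lower, 10.6% higher and 21.5% in either direction. These 7 were Acat2, Idi1, Sqle, Cyp51, Msmo1, Sc5d and Dhcr7, with differences between -0.23 and -0.45. Without DKO library 15 only 3 enzymes were called, against 15.6% of all genes. Sc5d, the desaturase that introduces the C5 double bond, had the largest of these differences. It was at 81.3, 90.3 and 80.4 CPM in MycKO cells, a difference to WT that was not called (-0.09 ± 0.07), and at 64.7, 61.5 and 57.8 CPM in DKO cells (-0.45 ± 0.07 against MycKO, limma, adjusted p = 0.000204). Against MlxKO cells, DKO cells were lower in 18 of the 20 enzymes, with Ggps1 (-0.04) and Ebp (-0.17) as the remainder and Idi1 at -2.03 ± 0.11, and 25.9% of all genes were called lower, 23.3% higher and 49.1% in either direction in that comparison.

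Whether the difference upon loss of Mlx depended on Myc was tested as the Myc-by-Mlx interaction, the DKO-against-MycKO difference minus the MlxKO-against-WT difference. It was below 0 and called for 14 of the 20 enzymes and above 0 and called for none, against 6.07% of all genes called lower, 7.47% higher and 13.5% in either direction. The largest interactions were those of Idi1 (-0.85 ± 0.16), Nsdhl (-0.82 ± 0.17) and Sc5d (-0.81 ± 0.10, limma, adjusted p = 3.09e-05). The median difference upon loss of Mlx was 0.36 where Myc was intact and -0.18 where it was deleted. Leaving out each of the 12 libraries in turn gave 14 or 15 enzymes.

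**Figure D2:**
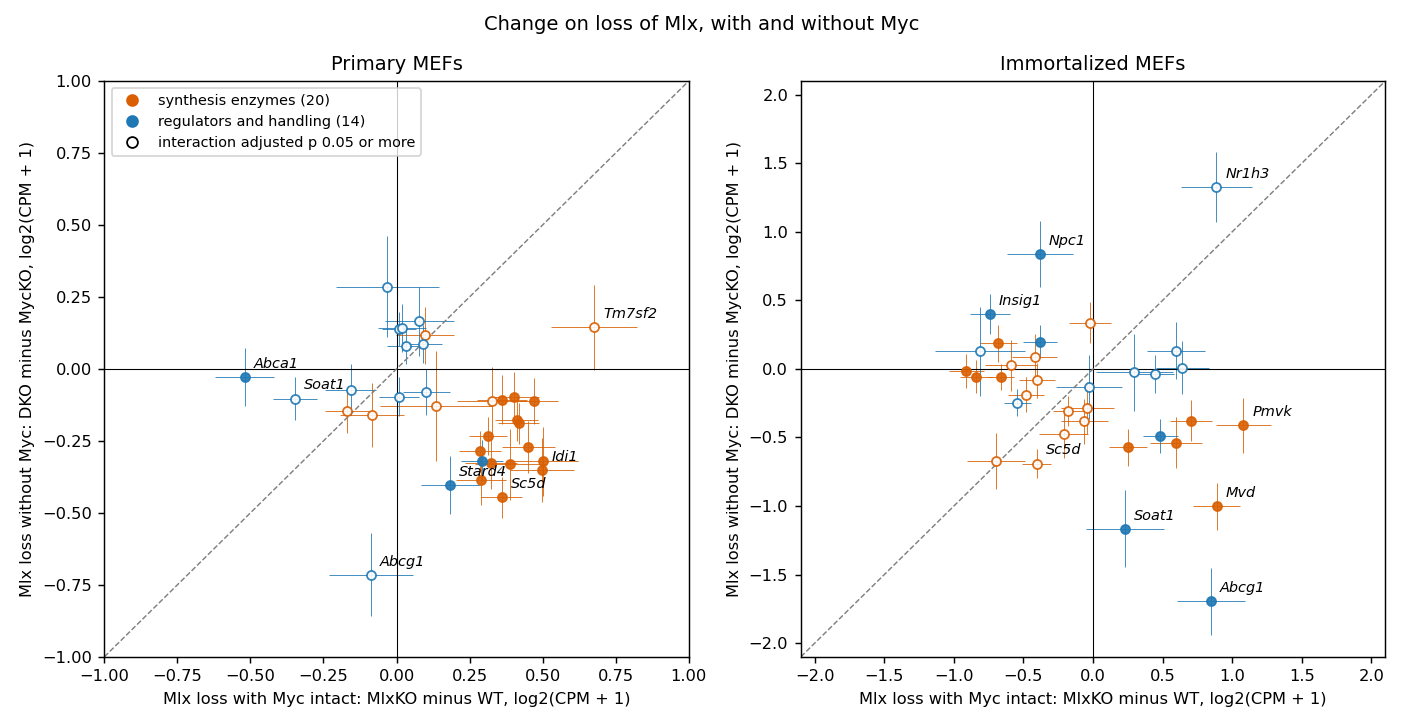
Difference in log2(CPM + 1) upon loss of Mlx where Myc was intact (MlxKO minus WT, horizontal axis) and where it was deleted (DKO minus MycKO, vertical axis) for the 34 members, with standard errors as thin lines. Filled points had an interaction at an adjusted p under 0.05, and on the dashed diagonal both differences are equal. In primary MEFs most synthesis enzymes lie in the lower right quadrant, between 0.28 and 0.50 on the horizontal and between -0.45 and -0.10 on the vertical axis, and in immortalized MEFs they are scattered.

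Promoter sequences were examined because these enzymes moved together. RefSeq promoter windows (GRCm38.p6, 250 bases before to 50 bases after each start) were found for 28 of the 34 members, 17 of them synthesis enzymes. Fdps, Fdft1, Sqle, Stard4, Npc1 and Abcg1 had none in the table. Motifs were searched on both strands and matches of different motifs did not overlap in the members. The E-box CACGTG, to which Myc and Mlx partners bind, was in a window of 6 of the 28 members, namely Hsd17b7, Sc5d, Dhcr7, Insig1, Scap and Abca1, and in 8.09% of the 27025 genes with a window. The sterol regulatory element was searched in 1 form only, TCACNCCAC, which was in the window of Hmgcs1 alone and in 1.44% of all genes. Other forms were not searched, so the lack of a match does not show that a gene lacks such an element. The CCAAT box, which NF-Y binds and which is commonly found next to sterol regulatory elements, was in a window of 16 of the 17 synthesis enzymes and of 7 of the 11 other members, and in 41.1% of all genes. The following stretches, on the strand of the gene and upstream of its start, show the sterol element of Hmgcs1 and the E-boxes of members whose levels are given per library in the text, with the motif in capitals.
Hmgcs1, chr13:119690204-119690232, plus strand: cgtcaccgtcTCACCCCACttcccaggtc
Hsd17b7, chr1:169969331-169969360, minus strand: ggacccttgtgtCACGTGgctccgcccctc
Sc5d, chr9:42264381-42264410, minus strand: ctacgcggcgacCACGTGaccgccgcgacc
Dhcr7, chr7:143823223-143823252, plus strand: cgctgtgatgaaCACGTGgcaaaaagcagc
Insig1, chr5:28071299-28071328, plus strand: gctgggtgaggtCACGTGgctccggtggca
Scap, chr9:110333304-110333333, plus strand: cgccgccgggagCACGTGtggagggcggcg
Abca1, chr4:53160025-53160054, minus strand: gggccatgtctcCACGTGctttctgctgag
The E-box began 143 bases before the start in Hsd17b7, 98 in Sc5d, 101 in Insig1 and 147 in Abca1, and before an alternative start it began at 164 bases in Dhcr7, for which 3 windows are listed, and at 40 bases in Scap, for which 2 are listed. For 5 of the 13 enzymes that fell in both primary and immortalized DKO cells, 1 CCAAT box each is shown as an example in the same manner, in capitals as ATTGG where the box is on the other strand.
Hmgcs1, chr13:119690294-119690322, plus strand: tccccgcctctcATTGGctgaaagcggat
Idi1, chr13:8885549-8885577, plus strand: tgcctccagctgATTGGcgagcccgggca
Lss, chr10:76531531-76531559, plus strand: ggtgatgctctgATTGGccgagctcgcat
Cyp51, chr5:4104710-4104738, minus strand: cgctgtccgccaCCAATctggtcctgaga
Msmo1, chr8:64733617-64733645, minus strand: gagtggggcggaCCAATtacgacaggcga
The genes with an E-box did not share a direction in primary MycKO cells, where Dhcr7 and Insig1 fell, Scap rose, and Hsd17b7, Sc5d and Abca1 were not called. A match of these letters is not evidence of binding.

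Of the regulators and handling genes of primary MEFs, some went with the enzymes, some went the other way and others were not called. Without Myc, 5 of the 14 rose and 2 fell, a share close to the 42.3% of all genes called in that comparison (20.4% higher, 21.9% lower). Without Mlx 1 rose and 2 fell, against 8.88% of all genes called (3.75% higher, 5.14% lower). In DKO cells 6 rose and 4 fell, against 49.5% (24.0% higher, 25.5% lower). The plot of these genes by library shows that their differences in primary cells were mostly smaller than those in immortalized cells.

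**Figure D3:**
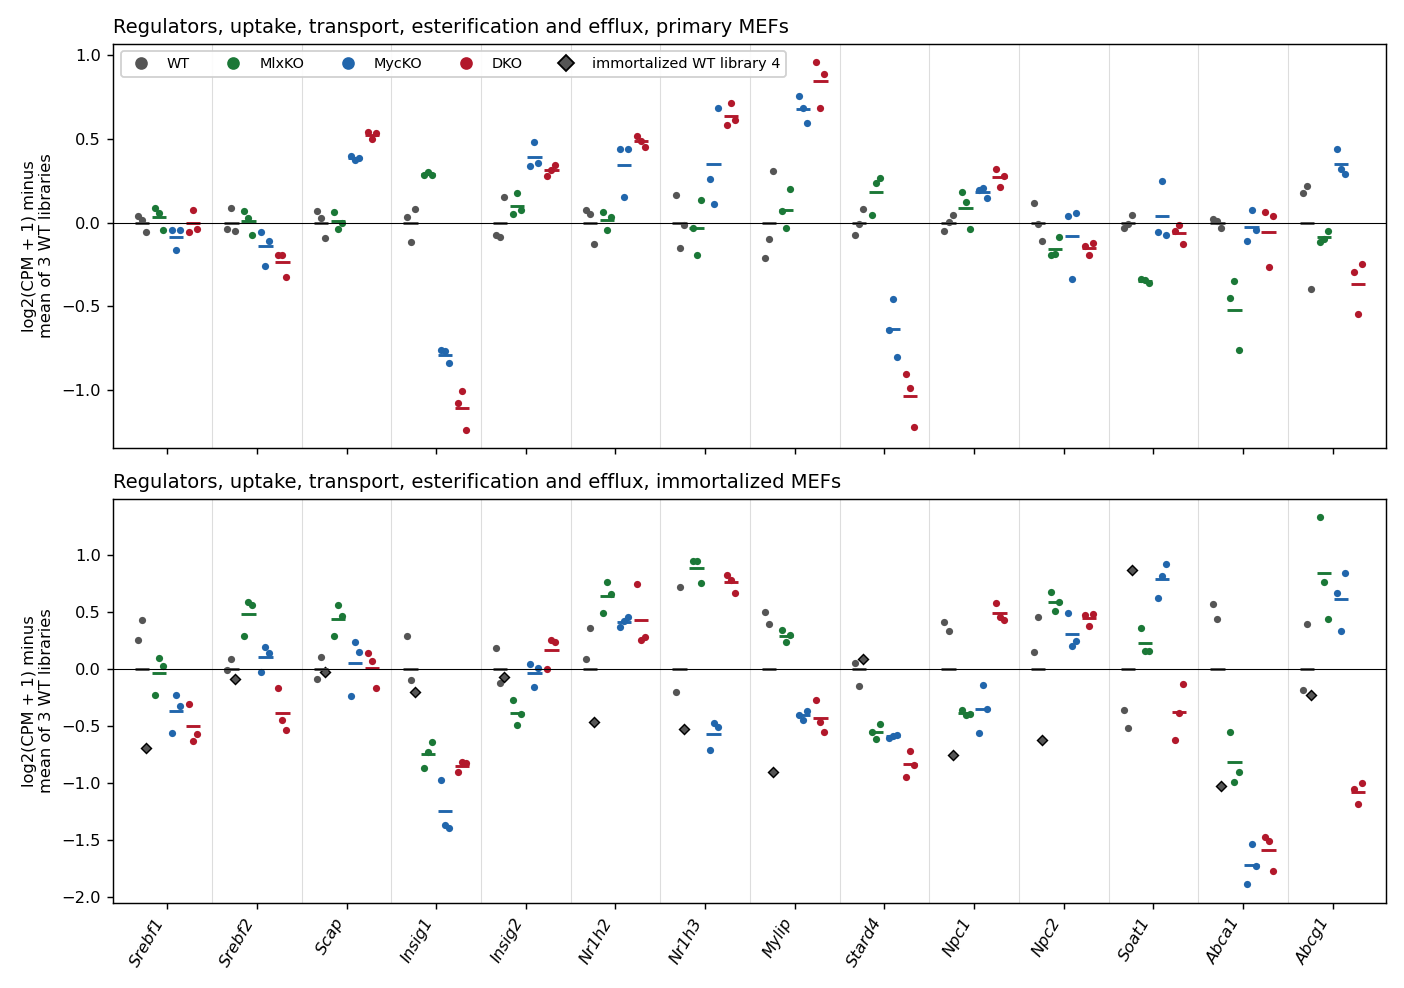
Levels of the 14 regulators and genes of uptake, transport, esterification and efflux in each library, as log2(CPM + 1) minus the mean of the 3 WT libraries of the same table. Points are libraries, short bars are means of 3 libraries, and the diamond is immortalized WT library 4, which lies below both other WT libraries for Srebf1, Mylip, Npc1, Npc2 and Abca1 and above them for Soat1.

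The 2 genes called lower with the enzymes in both MycKO and DKO cells were Insig1 and Stard4, both of which are known targets of SREBP. Their means had the order MlxKO, WT, MycKO, DKO from high to low, as did those of Srebf2, whose differences were smaller. Insig1, which retains Scap in the endoplasmic reticulum, was at 103, 92.7 and 106 CPM in WT, 123, 124 and 123 in MlxKO, 58.9, 58.7 and 55.8 in MycKO and 47.0, 49.6 and 42.0 CPM in DKO cells. No genotype overlapped with another, and the differences to WT in the same order were 0.29 ± 0.07, -0.79 ± 0.07 and -1.11 ± 0.07 (limma, adjusted p = 0.0167, 3.03e-07 and 4.94e-09), though the call in MlxKO cells was lost without WT library 2 or MlxKO library 6. Stard4, a soluble carrier that moves cholesterol between membranes, was at 47.6, 49.8 and 53.1 CPM in WT and fell by 0.63 ± 0.10 in MycKO and by 1.04 ± 0.10 in DKO cells, where it was at 26.3, 24.8 and 20.9 CPM. In MlxKO cells it was not called (0.18 ± 0.10). Both had a negative interaction, of -0.61 ± 0.10 for Insig1 and -0.59 ± 0.14 for Stard4.

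The transcripts of the SREBP precursors themselves differed little. Srebf1 stayed between 107 and 127 CPM in all 12 primary libraries, and its differences to WT lay between -0.08 and 0.03. Srebf2, whose product acts chiefly on cholesterol synthesis, was called only in DKO cells, at 217, 218 and 199 CPM against 243, 265 and 240 CPM in WT (-0.24 ± 0.07, limma, adjusted p = 0.00857), a call lost without WT library 2 or DKO library 15. Their escort Scap rose from 98.5, 95.7 and 88.1 CPM in WT to 124, 122 and 123 CPM in MycKO (0.39 ± 0.06) and 137, 133 and 137 CPM in DKO cells (0.53 ± 0.06, limma, adjusted p = 1.88e-06). Insig2, the Insig that does not depend on SREBP, rose in both as well (0.39 ± 0.08 and 0.31 ± 0.08), in the direction opposite to Insig1.

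On the side of uptake and efflux, Mylip, the LXR-induced ubiquitin ligase that sends lipoprotein receptors to degradation, went from 17.2, 18.7 and 25.1 CPM in WT to 34.6, 32.8 and 30.7 CPM in MycKO (0.68 ± 0.12) and 39.9, 32.9 and 37.9 CPM in DKO cells (0.84 ± 0.12, limma, adjusted p = 2.13e-05). Nr1h2, encoding LXR-beta, rose by 0.34 ± 0.08 and 0.49 ± 0.08 in the same genotypes, and Nr1h3, encoding LXR-alpha, rose in DKO cells (0.64 ± 0.18) from a level of 0.706 to 1.13 CPM in WT. Npc1, which exports cholesterol from lysosomes, rose by 0.27 ± 0.07 in DKO cells, whereas its partner Npc2 was not called in any primary comparison. The efflux pump Abca1, the best known LXR target, did not accompany them. It was at 67.6, 66.9 and 65.1 CPM in WT, 61.6, 70.1 and 64.5 CPM in MycKO (-0.03 ± 0.10) and 69.4, 55.3 and 68.3 CPM in DKO cells (-0.05 ± 0.10), and it fell in MlxKO cells to 48.4, 52.0 and 38.9 CPM (-0.52 ± 0.10, limma, adjusted p = 0.00421). Soat1, which esterifies cholesterol for storage, fell in MlxKO cells too, from 125, 128 and 132 CPM to 101, 101 and 99.7 CPM (-0.35 ± 0.08), with all 3 libraries below WT. The other pump, Abcg1, was lower in DKO than in MycKO cells (-0.71 ± 0.15, limma, adjusted p = 0.00178), with 7.20, 5.92 and 7.49 CPM against 12.7, 11.6 and 11.4 CPM. Its difference between DKO and WT (-0.36 ± 0.15, limma, adjusted p = 0.0474) was lost under several settings.

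Against MycKO cells, DKO cells had 3 of the 14 genes lower, namely Insig1, Stard4 and Abcg1, and none higher, against 21.5% of all genes called. Against MlxKO cells they had 8 higher and 3 lower, against 49.1% of all genes, the latter being Srebf2, Insig1 and Stard4. The interaction was called for Insig1, Stard4 and, in the positive direction, Abca1 (0.49 ± 0.14), against 13.5% of all genes. Without MycKO library 10 it was called for 5 genes, against 16.7% of all genes. Of 9 further genes for SREBP cleavage and sterol-regulated degradation, 4 rose and 1 fell in MycKO, none was called in MlxKO, and 5 rose and 1 fell in DKO cells. Of 9 genes for other isoprenoid branches, such as ubiquinone, dolichol and prenylation, 1 rose and 1 fell in MycKO, none was called in MlxKO, and 1 rose and 2 fell in DKO cells. Of 12 genes for sterol transport, esters and oxysterols, 2 rose and 4 fell, 1 rose and 1 fell, and none rose and 4 fell, in the same order. Of all genes, 42.3%, 8.88% and 49.5% were called in these 3 comparisons, and for MycKO the share of the first list was not far from that.

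In the deposited values of immortalized MEFs, which kept dividing, all 3 knockout lines had less synthesis enzyme RNA than WT. The pathway, however, no longer moved as a unit. The 20 enzymes summed to 2179, 1867 and 2607 CPM in WT libraries 2, 3 and 4. The sum was 74.2% ± 2.94 of the WT mean without Mlx, 75.6% ± 1.99 without Myc and 63.5% ± 2.20 without both (SD, n = 3). Without WT library 4 the shares were 81.4%, 82.9% and 69.6%. The MlxKO share depends on the deposited scaling, in which all genes summed to 915691 to 916232 CPM in MlxKO and 992479 to 1077213 CPM in WT libraries. With scaling by library totals Idi1, Lss and Sc5d were no longer called in MlxKO cells. The enzymes had 8 different orders of genotype means, and WT had the highest mean for 15 of the 20. The growth-state list summed to between 2403 and 3114 CPM in all 12 libraries.

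The plot of differences to WT sets both tables side by side.

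**Figure D4:**
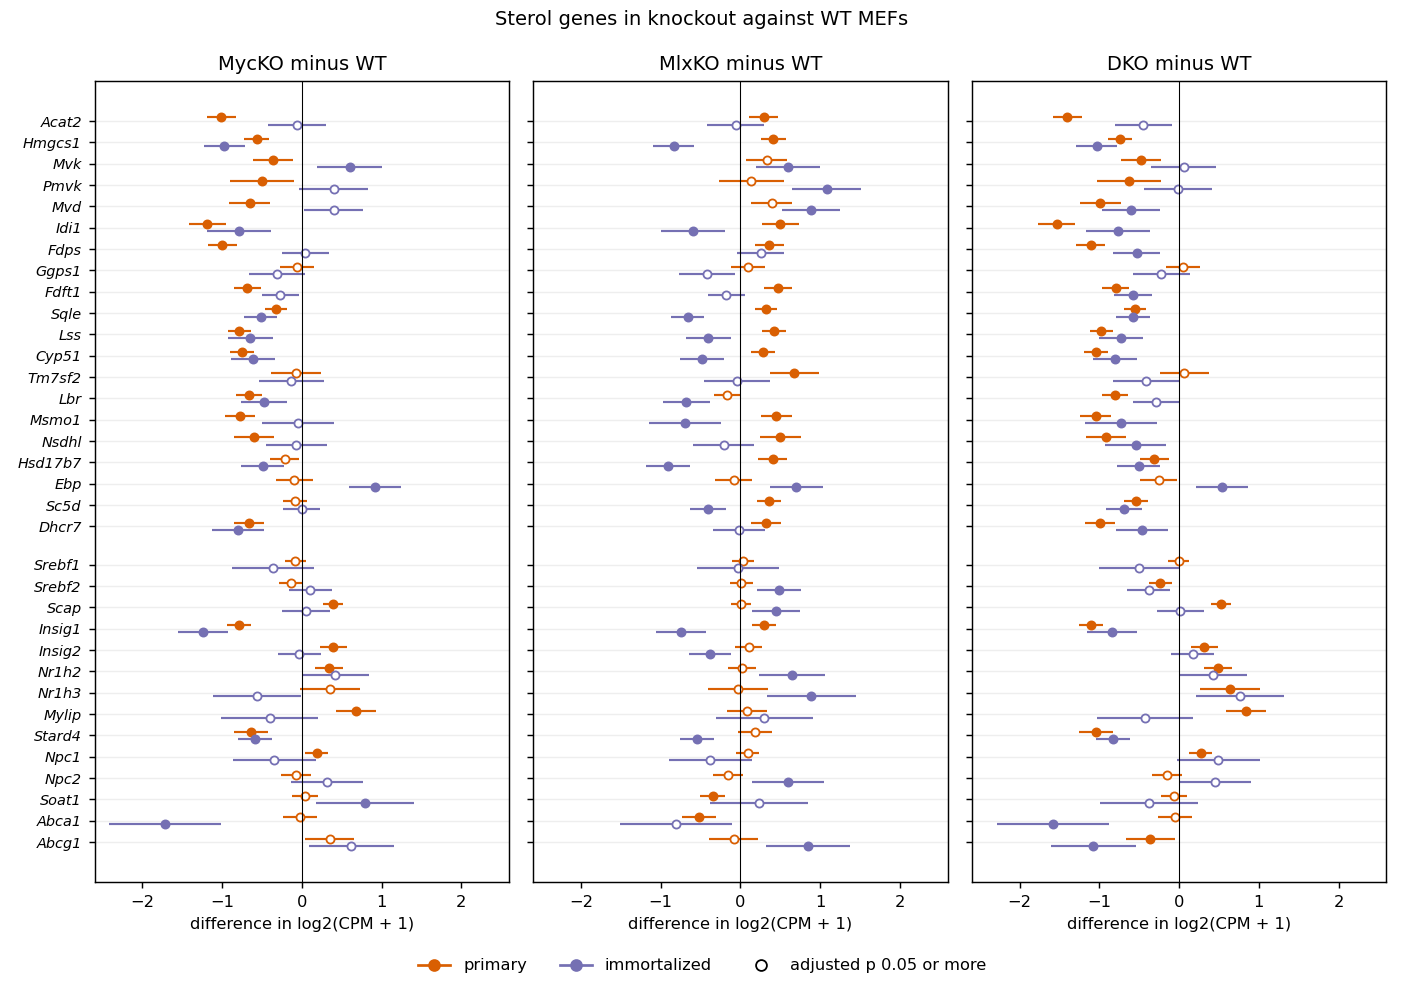
Difference in log2(CPM + 1) to WT in MycKO, MlxKO and DKO cells for the 20 synthesis enzymes (upper block, pathway order) and the 14 regulators and handling genes (lower block), in primary and immortalized MEFs, with 95% confidence intervals. Filled points had an adjusted p under 0.05. For MlxKO the primary points of Hmgcs1, Idi1, Sqle, Lss, Cyp51, Msmo1, Hsd17b7, Sc5d and Insig1 lie above 0 and the immortalized points below it, and for DKO 13 enzymes lie below 0 and are filled in both.

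In immortalized MycKO cells 8 enzymes fell and 2 rose, against 23.5% of all genes called lower, 24.4% higher and 48.0% in either direction, with a median of -0.20, so that the share called was close to that of all genes. In MlxKO cells 9 fell and 4 rose, against 19.9% lower, 19.1% higher and 38.9% in either direction, with a median of -0.31. In DKO cells 13 fell and 1 rose, against 8.51% lower, 10.4% higher and 18.9% in either direction, with a median of -0.54. Without WT library 4 these counts were 8 and 2, 7 and 5, and 12 and 1. Without any 1 of the DKO libraries 13, 14 and 15, leaving an arm of 2 libraries, the number called in DKO cells was 7, 8 and 7. Of all genes, 8.53%, 11.6% and 10.7% were called in these fits. In fits of only the 2 groups compared, 8 enzymes were called in MlxKO and 7 in DKO cells, against 28.3% and 7.91% of all genes. Of the 54 calls against WT in immortalized cells, 29 held in every setting, compared with 51 of 66 in primary cells.

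Of the enzymes, Hmgcs1, Idi1, Sqle, Lss, Cyp51 and Hsd17b7 were lower in all 3 immortalized knockouts, and of these Hmgcs1 and Sqle were called in every setting in all 3. Hmgcs1 was at 364, 282 and 317 CPM in WT, 182, 165 and 188 in MlxKO, 141, 171 and 176 in MycKO and 154, 157 and 157 CPM in DKO cells. Every knockout library lay below every WT library, and the differences of -0.84 ± 0.12, -0.97 ± 0.12 and -1.03 ± 0.12 (limma, adjusted p = 0.000477, 4.9e-05 and 0.000183) were called also without WT library 4. Sqle, at 170, 156 and 181 CPM in WT and between 97.2 and 122 CPM in the 9 knockout libraries, also lay apart (differences of -0.66 ± 0.10, -0.52 ± 0.10 and -0.58 ± 0.10 in the same order). Hsd17b7, which reduces the 3-keto group during C4 demethylation, was lowest in MlxKO cells, at 35.7, 36.3 and 35.8 CPM against 80.5, 60.5 and 65.7 CPM in WT (-0.91 ± 0.12). Idi1 and Lss in MlxKO cells lost their calls without WT library 4 (limma, adjusted p = 0.0516 and 0.0587).

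Other enzymes went up. Ebp, the sterol isomerase of the later steps, was at 12.9, 15.1 and 13.6 CPM in WT and between 18.9 and 33.0 CPM in the 9 knockout libraries, with differences of 0.91 ± 0.15 without Myc, 0.70 ± 0.15 without Mlx and 0.54 ± 0.15 without both, the last of which was lost in fits with 1 library fewer. In primary cells Ebp had not been called in any comparison. A run of 3 successive enzymes of the mevalonate steps, Mvk, Pmvk and Mvd, rose in MlxKO cells (0.60 ± 0.19, 1.08 ± 0.20 and 0.89 ± 0.17), though Mvk was not called in a fit of MlxKO and WT alone or without WT library 2 or 3 or MlxKO library 6 or 7. Mvd, the decarboxylase that yields isopentenyl diphosphate, was at 14.5, 16.6 and 16.7 CPM in WT, 22, 34.6 and 36.4 in MlxKO, 21.4, 21.9 and 20.7 in MycKO and 10.9, 9.79 and 9.72 CPM in DKO cells. It thus lay above WT in both single knockouts, though without a call in MycKO cells (0.40 ± 0.17, limma, adjusted p = 0.0682), and below WT in the double knockout (-0.60 ± 0.17, limma, adjusted p = 0.0275), a call that was lost without any 1 of the DKO libraries 13, 14 and 15. Its interaction of -1.89 ± 0.24 (limma, adjusted p = 8.54e-05) was the largest of any synthesis enzyme.

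The interaction was called for 9 enzymes in immortalized cells, 4 above and 5 below 0, against 23.7% of all genes called higher, 23.8% lower and 47.4% in either direction, a share close to that of the enzymes. It was negative for Mvk, Pmvk, Mvd, Fdps and Ebp and positive for Hmgcs1, Sqle, Lbr and Hsd17b7. For Hmgcs1 the DKO level was not called different from that of either single knockout (DKO against MycKO -0.06 ± 0.12, against MlxKO -0.19 ± 0.12). Without WT library 4 the counts were 5 above and 8 below 0, against 28.1% of all genes higher, 28.7% lower and 56.7% in either direction. DKO cells were lower than MycKO cells in 5 enzymes, Mvk, Mvd, Fdps, Msmo1 and Sc5d, and higher in none, against 14.6% of all genes called lower, 14.8% higher and 29.4% in either direction, with 3 enzymes called whenever a library of these groups was left out. Between 19.9% and 25.6% of all genes were called in those fits. Against MlxKO cells 6 were lower and 2, Lbr and Hsd17b7, were higher, against 13.9% called lower, 16.3% called higher and 30.1% in either direction. That count of 8 was 3 without MlxKO library 6 or 7 or DKO library 14, and 5 without DKO library 13 or 15. The shares of all genes called in these fits were, in that order, 17.9%, 18.3%, 18.5%, 26.8% and 19.6%. With scaling by library totals 13 enzymes were lower and none was higher, against 33.7% of all genes called in either direction.

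Between the tables, which were normalized separately and were not tested against each other, the double knockout had the most enzymes called lower in both. The 13 enzymes called lower in immortalized DKO cells were all among the 17 called lower in primary DKO cells, and for MycKO 7 enzymes were lower in both, which is 7 of 15 in primary and 7 of 8 in immortalized cells. Since most of the 20 enzymes fell in these primary cells, large overlaps follow in part from the length of the lists. The share of all genes called lower in both tables was not counted. For MlxKO no enzyme was called in the same direction in both. Instead 8 enzymes, Hmgcs1, Idi1, Sqle, Lss, Cyp51, Msmo1, Hsd17b7 and Sc5d, rose in primary and fell in immortalized cells, which is 8 of the 14 that rose in the former and 8 of the 9 that fell in the latter. Of these, Hmgcs1, Sqle and Hsd17b7 were called in every setting in both tables. The share of all genes called in opposite directions in the tables was not counted either. Counted instead by libraries that did not overlap, such a reversal in MlxKO against WT held for 9 of the 34 members. It also held for 7.77% of the 12402 genes tested in both tables. Msmo1, the C4 methyl oxidase, was at 150, 175 and 184 CPM in primary MlxKO against 120, 117 and 134 CPM in primary WT, and at 140, 119 and 130 CPM in immortalized MlxKO against 192, 151 and 322 CPM in immortalized WT, of which the last is library 4. The immortalized call was lost without MlxKO library 6 or 7 and in a fit of MlxKO and WT alone. Each table has its own WT library set, and all 3 comparisons within a table share it.

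Among the regulators and handling genes of immortalized cells, 1 rose and 3 fell in MycKO, 6 rose and 3 fell in MlxKO, and none rose and 4 fell in DKO cells. Of all genes, 48.0%, 38.9% and 18.9% were called, so that the share in MycKO cells was below that of all genes. Without WT library 4 these counts were 1 and 7, 6 and 6, and none and 7. The MlxKO count of 9 was 4 without WT library 2, 3 without MlxKO library 6 and 5 without MlxKO library 7, and the DKO count was 7 also without WT library 3. In these fits 27.2%, 22.2%, 24.4% and 25.3% of all genes were called, in that order.

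Insig1 and Stard4 were again lower with the enzymes, and here in all 3 knockouts and in every setting. Insig1 was at 362, 276 and 257 CPM in WT, 162, 178 and 189 in MlxKO, 150, 114 and 112 in MycKO and 157, 168 and 167 CPM in DKO cells, with differences of -0.74 ± 0.15, -1.24 ± 0.15 and -0.84 ± 0.15. The interaction was positive (1.14 ± 0.21, limma, adjusted p = 0.000895), where it had been negative in primary cells. Stard4 was at 124, 108 and 127 CPM in WT and between 61.4 and 85.3 CPM in the knockout libraries, with differences of -0.54 ± 0.10, -0.59 ± 0.10 and -0.83 ± 0.10 in that order of genotypes.

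Srebf2 was at 332, 408 and 402 CPM in MlxKO against 270, 288 and 255 CPM in WT (0.48 ± 0.12, limma, adjusted p = 0.0102) and at 241, 199 and 187 CPM in DKO cells, the difference between DKO and MlxKO being -0.86 ± 0.12 (limma, adjusted p = 0.000385). The rise in MlxKO cells was lost without MlxKO library 6. Scap behaved likewise, with 0.44 ± 0.14 in MlxKO against WT and -0.43 ± 0.14 in DKO against MlxKO cells, the former being lost without WT library 2 or MlxKO library 6 or 7. Srebf1 was not called against WT with all libraries, with WT library 4 at 108 CPM and libraries 2 and 3 at 210 and 238 CPM. Without that library it was lower in all 3 knockouts (-0.71 ± 0.14 in MycKO, -0.38 ± 0.14 in MlxKO and -0.85 ± 0.14 in DKO).

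Mylip had the same limitation. Its WT libraries were at 35.8, 33.2 and, for library 4, 12.9 CPM, and MycKO and DKO cells lay between 16.7 and 20.5 CPM, so that it was called lower in both only without library 4 (-0.85 ± 0.12 and -0.88 ± 0.12). In primary cells Mylip had been higher in these genotypes. Nr1h3 was at 0.937, 2.66 and 0.548 CPM in WT, 3.29, 3.30 and 2.76 in MlxKO, 0.358, 0.604 and 0.563 in MycKO and 2.96, 2.83 and 2.54 CPM in DKO cells. The MycKO libraries lay below all 6 libraries without Mlx, and DKO cells were higher than MycKO cells (1.33 ± 0.26, limma, adjusted p = 0.00198).

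Lysosomal export and storage also differed by genotype. Npc1 was at 146, 135 and 131 CPM in DKO cells and between 65.7 and 88.4 CPM in the 6 single-knockout libraries (0.84 ± 0.24 against MycKO and 0.87 ± 0.24 against MlxKO). Its WT libraries were at 130 and 123 CPM and, for library 4, at 57.5 CPM, and without the latter it was lower than WT in MycKO (-0.72 ± 0.12) and MlxKO (-0.76 ± 0.12) cells. Soat1 was at 89.7, 103 and 111 CPM in MycKO, 74.5, 64.9 and 64.9 in MlxKO, 37.3, 44.0 and 52.9 in DKO and 45.0, 40.1 and, for library 4, 106 CPM in WT cells, and it was lower in DKO than in MycKO cells (-1.16 ± 0.28, limma, adjusted p = 0.00791).

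Of all 34 members, the efflux pump Abca1 had the largest fall against WT in immortalized cells on the log2(CPM + 1) scale, which understates weakly expressed genes. It was at 126, 115 and, for library 4, 41.0 CPM in WT, 57.2, 42.0 and 44.8 in MlxKO, 22.1, 28.6 and 24.9 in MycKO and 29.7, 29.0 and 24.0 CPM in DKO cells. All 6 libraries without Myc lay below all WT libraries, library 4 included (-1.71 ± 0.32 in MycKO and -1.58 ± 0.32 in DKO, limma, adjusted p = 0.00113 and 0.00631), and the DKO call was lost in a fit of DKO and WT alone. The MlxKO difference of -0.81 ± 0.32 was not called with all libraries and was -1.32 ± 0.15 without library 4. Abcg1 was at 1.35, 2.50 and 1.28 CPM in WT, 5.71, 3.50 and 2.6 in MlxKO, 3.22, 2.36 and 3.77 in MycKO and 0.284, 0.17 and 0.331 CPM in DKO cells, the last group being near the level of 3 reads. It was lower in DKO cells than in WT (-1.07 ± 0.24), MycKO (-1.69 ± 0.24) and MlxKO cells (-1.92 ± 0.24), and its interaction of -2.54 ± 0.35 (limma, adjusted p = 0.000147) was the largest among the 34 members. The macrophage markers Adgre1, Tyrobp, C1qa and C1qb were at 0 in all libraries of every immortalized genotype, and the list summed to less than 6 CPM in each library.

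Among these 14 genes, DKO cells had 2 higher and 3 lower than MycKO cells and 2 higher and 4 lower than MlxKO cells, against 29.4% and 30.1% of all genes called, and the latter count of 6 was 3 without MlxKO library 6 or 7. In those fits 17.9% and 18.3% of all genes were called. The interaction was positive for Insig1, Insig2 and Npc1 and negative for Srebf2, Soat1 and Abcg1, against 47.4% of all genes called. Without WT library 3 it was called for 10 genes, against 48.2% of all genes. Of the 9 further genes for SREBP cleavage and degradation, none rose and 4 fell in MycKO, none rose and 4 fell in MlxKO, and none rose and 1 fell in DKO cells. Of the 9 genes for other isoprenoid branches, 1 rose and 1 fell, none rose and 2 fell, and 1 rose and none fell, in the same order. Of the 12 genes for transport, esters and oxysterols, 2 rose and 4 fell, 2 rose and 1 fell, and 2 rose and 1 fell, against 48.0%, 38.9% and 18.9% of all genes called, with Erg28, which tethers enzymes of sterol C4 demethylation, among those that fell in all 3.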

How the data were processed

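RNA of 24 samples, 3 of each of 4 genotypes in primary and in immortalized MEFs, was sequenced on a NovaSeq by the authors as directional poly-A libraries, and reads were mapped to GRCm39 and counted per gene with CLC Genomics Workbench, as stated in the paper. The authors deposited 1 table per cell type with a signal named CPM per gene and library. These values are read counts in proportion to library size that had also been scaled across libraries, by a method not given in the sources used here, since sums per library ranged from 915691 to 1077213. All of the values above 0 were whole multiples of the CPM of 1 read within a tolerance of 0.001 reads (100% in each library), so that reads on genes (15986856 to 20966163 per library) and the CPM of 3 reads were recovered. The floor covers counting error only. Columns were tied to genotypes by name. The library number in a column name could not be matched to a replicate number in the labels. No column was left unused.

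A gene entered the test if 3 or more of the 12 libraries of its table reached 1 CPM. The genes were fitted with limma 3.58.1 in R 4.3.3 (trend in the variance prior, 4 genotypes in 1 fit, two-sided) on log2(CPM + 1), with a pseudocount of 1. Tables were never tested against each other. The comparisons were each knockout against WT, DKO against each single knockout and the Myc-by-Mlx interaction, at a Benjamini-Hochberg adjusted p of 0.05. A median or count over a list is a description, and lists were not tested.

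The alternatives tried were count tests of the recovered reads with DESeq2 1.42.0 or edgeR 4.0.16, scaling by library totals or by median ratios, fits restricted to the groups compared, another pseudocount (0.1), a filter at a mean of 5 CPM or none, and the omission of each library. The code was tested on simulated data. Replicate libraries were compared gene by gene, and none were duplicates. All 34 members were described, as the rule for named genes required, and the members and the other gene lists were chosen with earlier results of these data known. Erg28 was named after its values were seen. By the GENCODE vM39 annotation of GRCm39, exons of 14 members overlap a coding gene on the opposite strand and those of 1, Tm7sf2, a gene on the same strand. The 14 are Acat2, Hmgcs1, Ggps1, Fdft1, Sqle, Cyp51, Lbr, Nsdhl, Srebf1, Srebf2, Scap, Nr1h3, Npc1 and Npc2. Whether counting used strand is not given in the sources used here. Acat3, the neighbouring copy of Acat2, was at no more than 0.847 CPM in primary cells. Promoter sequences are RefSeq's on GRCm38.p6, and their coordinates belong to that build. Figures were drawn with matplotlib 3.10.9.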

Additional observations from a re-analysis of the deposited data

Results flagged for a closer look

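Myc-by-Mlx interactions with an adjusted p under 0.05 (limma, over all genes tested) were noted for 17 members in primary cells and 15 in immortalized cells, that is, the difference upon loss of Mlx was not the same with and without Myc. In primary cells the interaction on the log2 scale was -0.68 for Acat2, -0.59 for Hmgcs1, -0.72 for Mvd, -0.85 for Idi1 and -0.47 for Fdps among the early enzymes. It was -0.58 for Fdft1, -0.55 for Sqle and -0.61 for Lss, and among the late enzymes -0.57 for Cyp51, -0.72 for Msmo1, -0.82 for Nsdhl, -0.50 for Hsd17b7, -0.81 for Sc5d and -0.65 for Dhcr7. Insig1 had -0.61, Stard4 -0.59 and Abca1 0.49. The primary DKO pool, on which this contrast rests, also had the lowest level of the Y-linked gene Ddx3y (10.1 to 10.9 CPM against 50.5 to 84.8 CPM in the other primary libraries), and the part of this in the result was not tested.

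In immortalized cells the interaction was -1.14 for Mvk, -1.49 for Pmvk, -1.89 for Mvd, -0.83 for Fdps and -1.08 for Ebp, and 0.78 for Hmgcs1, 0.60 for Sqle, 0.87 for Lbr and 0.89 for Hsd17b7. Among the other members it was -0.97 for Srebf2, -1.39 for Soat1 and -2.54 for Abcg1, and 1.14 for Insig1, 0.58 for Insig2 and 1.22 for Npc1. Hmgcs1, Sqle, Hsd17b7 and Insig1 thus had interactions of opposite sign in the 2 tables, and this difference between tables was not tested.

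For 20 pairs of a member and a comparison, all libraries of the first genotype lay above all of the second in one table and below all of them in the other. The difference between the tables was not tested in any of them, since the tables were normalized separately. For MlxKO against WT this held for 9 of the 34 members and for 7.77% of the 12402 genes tested in both tables. The immortalized minus the primary difference was -1.25 for Hmgcs1, -1.09 for Idi1, -0.98 for Sqle, -0.82 for Lss, -0.77 for Cyp51, -1.15 for Msmo1, -1.31 for Hsd17b7, -0.76 for Sc5d and -1.03 for Insig1. For MycKO against WT it held for Mvk (0.96) and Mvd (1.05) and for 6.31% of all genes, and for DKO against WT for Ebp (0.79) and for 5.93%. For DKO against MycKO it held for Dhcr7 (0.67) and Insig1 (0.72) and for 7.73% of all genes. For DKO against MlxKO it held for Lbr (1.03), Hsd17b7 (1.11), Scap (-0.95), Mylip (-1.49), Soat1 (-0.89) and Abca1 (-1.24) and for 14.1% of all genes.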

How the results depend on the processing

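Across all settings, no called difference of a member to WT changed direction. Of 66 calls in primary and 54 in immortalized cells, 51 and 29 were kept in every setting that tested the gene. In fits of only the groups compared in immortalized cells, 8 synthesis enzymes and 4 other members were called in MlxKO against WT (13 and 9 in the fit of 4 genotypes) and 7 enzymes in DKO against WT (14). They gave 9 enzymes in DKO against MycKO (5), and 14 enzymes and 10 other members in DKO against MlxKO (8 and 6). Of all genes, these fits called 28.3% in MlxKO and 7.91% in DKO against WT, 37.4% in DKO against MycKO and 47.7% in DKO against MlxKO. Without a filter on low values 5 enzymes were called in DKO against MlxKO immortalized cells, and with scaling by library totals 13, all lower. That scaling moved the median of all genes by -0.12 for DKO against MlxKO in primary cells, and in immortalized cells by 0.16 for MlxKO against WT, -0.16 for DKO against MlxKO and -0.18 for the interaction. It also moved the split of all genes called higher and lower, in primary cells from 2677 and 2864 to 1851 and 4060 in MycKO, from 491 and 673 to 661 and 570 in MlxKO, from 3146 and 3341 to 2482 and 4199 in DKO against WT and from 3047 and 3390 to 2217 and 4635 in DKO against MlxKO. In immortalized cells it moved from 2457 and 2557 to 3685 and 1583 in MlxKO against WT, from 2094 and 1785 to 1269 and 3088 in DKO against MlxKO and from 3047 and 3061 to 2322 and 3927 for the interaction. With a mean of at least 5 CPM 3 other members were called in DKO against MycKO immortalized cells (5). The cause of these changes was not tested.

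With each library left out in turn, primary cells gave 8 to 14 enzymes in MlxKO against WT, 3 to 7 enzymes in DKO against MycKO and 2 to 5 other members in the interaction. Immortalized cells gave 3 to 8 other members in MycKO, 3 to 12 other members in MlxKO, and 7 to 15 enzymes and 4 to 7 other members in DKO against WT. For DKO against MycKO 3 enzymes were called in each case, for DKO against MlxKO 3 to 6 enzymes and 3 to 5 other members, and for the interaction 6 to 10 other members. The share of all genes called moved as well. For immortalized DKO against WT it went from 18.9% to 8.53%, 11.6% and 10.7% without DKO library 13, 14 and 15. No paired analysis was possible because no column name could be matched to a replicate number in the labels. Genes near 3 reads, such as Abcg1 in immortalized DKO cells, are limited by depth, and their difference on the log2(CPM + 1) scale understates the change.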
